A study of Mus musculus with 6 samples.

Results

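Imprinted genes were followed in 6 colorectal tumours of the mouse, 3 grown in white adipose tissue after injection of the cancer there and 3 grown in non-adipose tissue, each on its own Affymetrix whole-transcript array. Each group had 3 mice, and tumours were taken at 1 to 1.5 cm3. The labels name no genotype, strain, age, cell line, fat depot or treatment for either group, and do not say which tissue the non-adipose site was. A list of 35 imprinted genes was drawn up, and a gene was kept when at least 1 probe set was annotated to it alone, with the brightest such probe set standing for the gene. This left 31 of the 35, out of 22180 genes measured in all: 11 of 13 genes expressed from the maternal copy, 19 of 21 expressed from the paternal copy, and Gnas, whose promoters differ in the parental copy they use. H19, Mirg, Rtl1 and Snrpn are represented by probe sets that also carry the names of other genes, so they were given no value.

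An imprinted gene is transcribed mainly or wholly from the copy inherited from one parent. Which copy that is depends on marks, mostly DNA methylation, laid down in the egg or the sperm. The genes lie in clusters, each governed by a control region, and in several clusters a long noncoding RNA from one copy silences protein-coding neighbours on that same copy. Many paternally expressed members promote fetal growth and many maternally expressed ones restrain it, many are switched down after birth, and loss of imprinting at Igf2 is a known change in colorectal cancer. The arrays measured total RNA and did not separate the parental copies.

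Promoter sequence is shown for the genes on which the results below turn: Igf2, with the brightest signal; Kcnq1ot1, whose groups of arrays stood apart; Rian, with the largest decrease in mean signal; and Mest and Grb10, whose site difference changed sign or size with the array left out. Each is a 300-base window across a RefSeq transcription start in mouse build GRCm38.p6, printed 5′ to 3′ on the strand of the gene. Capitals mark TGCCGC or its reverse complement GCGGCA, the motif bound by ZFP57, a zinc finger protein that protects imprints in the early embryo.
Igf2, chr7:142661222-142661521, minus strand: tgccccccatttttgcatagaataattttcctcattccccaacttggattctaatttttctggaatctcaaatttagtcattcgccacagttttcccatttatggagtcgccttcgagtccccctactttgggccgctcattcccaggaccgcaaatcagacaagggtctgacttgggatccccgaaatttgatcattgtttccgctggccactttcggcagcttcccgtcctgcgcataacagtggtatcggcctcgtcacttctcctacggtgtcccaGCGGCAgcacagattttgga
Kcnq1ot1, chr7:143296498-143296797, minus strand: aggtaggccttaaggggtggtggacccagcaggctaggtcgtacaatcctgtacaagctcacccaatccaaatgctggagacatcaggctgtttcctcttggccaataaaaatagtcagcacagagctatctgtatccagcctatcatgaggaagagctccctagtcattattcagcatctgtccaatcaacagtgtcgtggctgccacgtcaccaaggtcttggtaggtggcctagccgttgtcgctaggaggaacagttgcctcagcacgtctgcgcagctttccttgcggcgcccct
Rian, chr12:109603695-109603994, plus strand: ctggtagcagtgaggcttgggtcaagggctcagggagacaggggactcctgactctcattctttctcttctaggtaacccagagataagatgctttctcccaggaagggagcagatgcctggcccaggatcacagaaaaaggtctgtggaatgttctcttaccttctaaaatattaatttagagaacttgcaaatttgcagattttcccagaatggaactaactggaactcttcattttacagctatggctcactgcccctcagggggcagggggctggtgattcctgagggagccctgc
Mest, chr6:30737800-30738099, plus strand: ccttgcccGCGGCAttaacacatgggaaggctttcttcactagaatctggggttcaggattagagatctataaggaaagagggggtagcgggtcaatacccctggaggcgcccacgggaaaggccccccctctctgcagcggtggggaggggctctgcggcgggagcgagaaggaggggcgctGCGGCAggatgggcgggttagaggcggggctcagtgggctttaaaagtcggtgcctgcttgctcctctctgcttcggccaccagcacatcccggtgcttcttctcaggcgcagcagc
Grb10, chr11:12037371-12037670, minus strand: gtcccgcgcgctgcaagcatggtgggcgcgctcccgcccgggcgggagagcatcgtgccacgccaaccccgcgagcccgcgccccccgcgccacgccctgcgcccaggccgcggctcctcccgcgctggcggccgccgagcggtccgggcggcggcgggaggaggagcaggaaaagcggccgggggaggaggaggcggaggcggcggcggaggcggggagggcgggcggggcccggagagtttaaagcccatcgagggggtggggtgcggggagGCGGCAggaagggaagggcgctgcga
Igf2 had 4 RefSeq windows, Mest 3 and Grb10 2, and the one printed is that with the most matches, the first by position where windows tied. The Mest window held 2 matches and the Igf2 and Grb10 windows 1 each, while the Kcnq1ot1 and Rian windows held 0. The Rian window also held 0 CpG dinucleotides, against 45 in the Grb10 window. Of the 27 listed genes with a RefSeq window, 8 (29.63%) had a match in at least 1 window, and of all 27025 genes with a window 13.05% did. Counted by window, the shares were 21.43% of 42 and 11.61% of 32851. The motif itself holds a CpG, and the median CpG count per window was 12.5 for listed genes and 7.0 for all. The part of CpG content in the shares was not tested. A match describes these letters only.

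White adipose replicate 1 was the highest array for 5 of the 6 measured markers of skin keratinocytes. It was also highest for 3 of 8 fibroblast, 4 of 10 intestinal epithelium, 2 of 6 peripheral nerve and 1 of 5 endothelium markers. For the 8 skeletal muscle, 6 leukocyte and 7 adipocyte markers the count was 0, and of all genes the share was 19.4%. The epidermal keratin Krt10 read 11.59, 5.90 and 5.98 in white adipose replicates 1, 2 and 3, against 6.06, 6.16 and 6.05 in non-adipose replicates 1, 2 and 3. The mean log2 signal of the 6 measured keratinocyte markers was 8.20, 5.17 and 5.29 in white adipose replicates 1, 2 and 3, against 5.29, 5.22 and 6.19 in non-adipose replicates 1, 2 and 3. Krt10 and Krt1 were raised in white adipose replicate 1 alone. Non-adipose replicate 3 was near it in Dsg3 (6.09 against 6.30) and above it in Trp63 (7.26 against 6.81). The 8 skeletal muscle markers averaged 5.70 to 5.88 in the white adipose arrays and 6.43, 5.75 and 7.01 in non-adipose replicates 1, 2 and 3. Among them the actin gene Acta1 read 7.09, 6.47 and 6.20 in white adipose replicates 1, 2 and 3, against 7.97, 6.53 and 9.04 in non-adipose replicates 1, 2 and 3. Of these 8 muscle markers, 6 had a lower mean in the white adipose tumours and 2 a higher one, Myod1 (0.18) and Pax7 (0.05). Of the 10 intestinal epithelium markers, 7 lay below the median signal of all genes. Among these 7, Epcam (4.95), Vil1 (4.65), Krt20 (4.74) and Cdx2 (5.39), as means over 6 arrays, lay at percentiles 29.11, 23.32, 24.82 and 38.85 when all genes were ordered by mean signal. Above the median were the epithelial keratins Krt8 and Krt18, at percentiles 96.14 and 94.94, and Cdh1, at percentile 66.89. Of 7 measured adipocyte markers, 5 lay below the median signal of all genes. They ran from Adipoq at percentile 15.60, which read 4.10 to 4.27 in the white adipose arrays against 4.14 in each non-adipose array, to Fabp4 at percentile 63.11, which read 5.78 to 7.86 in the white adipose arrays against 6.69 to 7.58 in the non-adipose arrays. Their mean was 5.29, 5.38 and 5.83 in white adipose replicates 1, 2 and 3, against 5.49, 5.50 and 5.55 in non-adipose replicates 1, 2 and 3. Among markers of other cell types, 3 were at an unadjusted p under 0.05, none with an adjusted p below 0.936 in limma: the muscle creatine kinase Ckm (-0.52, SE 0.18), the leukocyte integrin Itgam (-0.22, SE 0.073) and the neuronal filament gene Prph (0.26, SE 0.084). They were 1 of 8 skeletal muscle, 1 of 6 leukocyte and 1 of 6 peripheral nerve markers, beside 3.79% of all genes. The intestinal epithelium, adipocyte, fibroblast, keratinocyte and endothelium lists had 0. In whole tumours such as these, fewer cells of a type and less RNA per cell cannot be told apart.

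No imprinted gene passed the test for a difference between the sites. In the limma fit over all genes, 0 of the 31 had an adjusted p under 0.05, as did 0 of all 22180 genes (0.0% in each direction). At an unadjusted p under 0.05 there were also 0 of 31, beside 3.79% of all genes, or 1.66% higher and 2.13% lower. Means were higher in the white adipose tumours for 17 members and lower for 14, beside 49.8% of all genes higher and 50.2% lower. The spread within the white adipose group was the wider for 14 of 31 members and for 52.8% of all genes. A difference of at least 0.5 in size was seen for 2 of 31, Impact and Rian, beside 1.56% of all genes. The median difference, white adipose minus non-adipose, was 0.03 on the log2 scale for the 11 maternally expressed genes (6 higher, 5 lower) and 0.01 for the 19 paternally expressed genes (11 higher, 8 lower), beside -0.0004 over all genes. The 95% confidence interval lay within a 2-fold change in either direction for 29 of the 31 members, all but Impact and Rian.

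**Figure D1:**
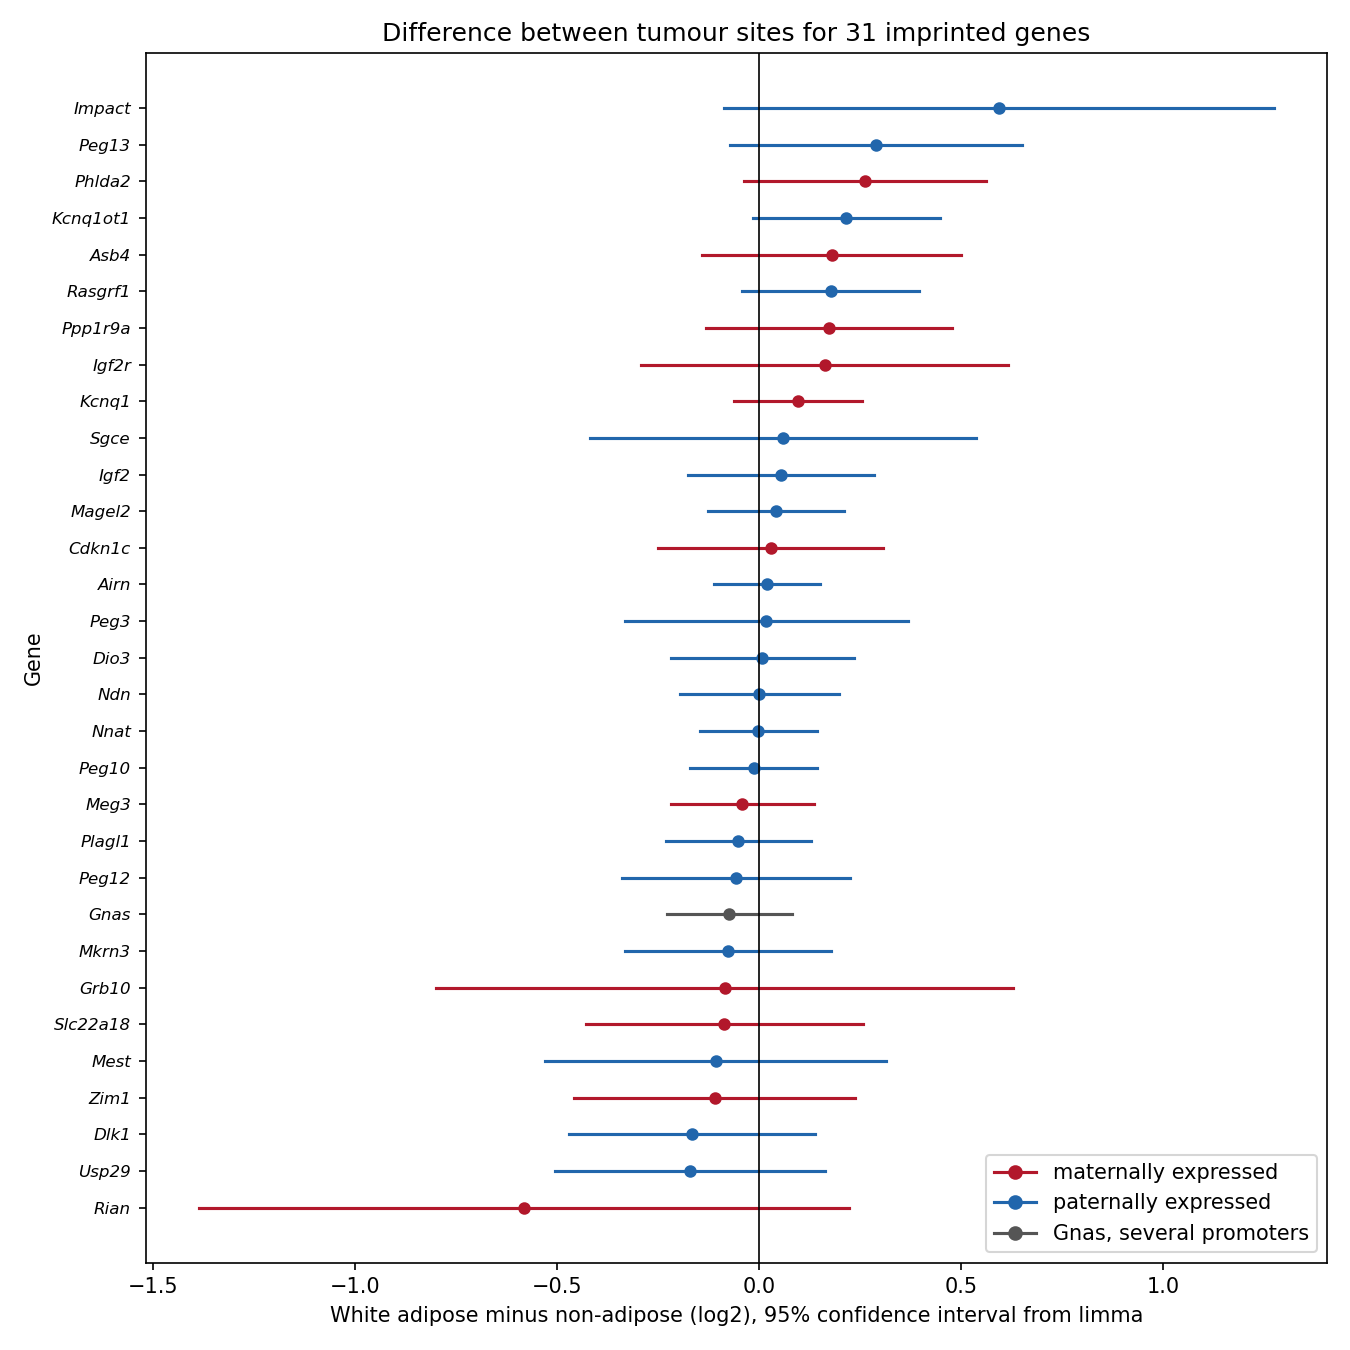
Difference in log2 signal, white adipose minus non-adipose, for 31 imprinted genes (points) with limma's 95% confidence interval (lines), from 3 arrays per site; red marks maternally expressed genes, blue paternally expressed genes and grey Gnas. Every interval includes 0, and the widest belong to Rian, Grb10 and Impact.

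Igf2, the fetal insulin-like growth factor, was bright on every array and nearly level between the sites. It read 10.32, 10.44 and 10.27 in white adipose replicates 1, 2 and 3, against 10.14, 10.43 and 10.29 in non-adipose replicates 1, 2 and 3. The groups overlapped, and the mean was 10.34 ± 0.089 in white adipose tumours and 10.29 ± 0.14 in non-adipose tumours (SD, n = 3 each), a difference of 0.05 with a 95% confidence interval from -0.18 to 0.28. It lay at percentile 98.22 by mean signal, although probe sets differ in how strongly they bind, so the percentile places Igf2 above the dim end of the array and does not rank its RNA against others. Igf2r, the receptor that carries IGF2 to the lysosome for breakdown, read 7.83, 8.19 and 8.03 in white adipose tumours against 7.54, 8.22 and 7.80 in non-adipose tumours. Its difference was 0.16 (SE 0.19), with both the lowest and the highest value among the non-adipose arrays. Airn, the paternally expressed antisense RNA that silences Igf2r in cis, had the narrowest range of any member, 0.06 over the 6 arrays, at a signal of 5.47 to 5.53.

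The partners of Igf2 outside the imprinted list had higher means in the white adipose tumours for 9 of 10 genes, beside 49.8% of all genes, with a median difference of 0.20, but none was at an unadjusted p under 0.05. White adipose replicate 1 was the highest of the 6 arrays for 7 of these 10, as it was for 19.4% of all genes. The binding protein Igfbp2 read 7.77, 5.68 and 6.09 in white adipose replicates 1, 2 and 3, against 6.19, 6.67 and 6.13 in non-adipose replicates 1, 2 and 3. Without that array Igfbp2 differed by -0.44 in place of 0.18, and Igfbp5 by 0.01 in place of 0.26. The signalling receptor Igf1r differed by 0.0015 (SE 0.075), and the insulin receptor Insr by 0.29 (SE 0.145).

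Among the maternally expressed growth restrainers, Grb10, an adaptor that dampens insulin and IGF receptor signalling, differed widely within the white adipose group. It read 6.93, 5.91 and 5.88 in white adipose replicates 1, 2 and 3, against 6.39, 6.13 and 6.45 in non-adipose replicates 1, 2 and 3. White adipose replicate 1 was thus the highest array and replicates 2 and 3 the lowest. The difference was -0.08 (SE 0.29) with all arrays, -0.43 without white adipose replicate 1, the array with the high keratinocyte markers, and 0.08 and 0.0949 without white adipose replicate 2 or 3. The part of these or other cell type markers in the Grb10 value was not tested. Cdkn1c, the cell cycle inhibitor p57, read 5.65, 5.51 and 5.42 in white adipose tumours against 5.34, 5.70 and 5.45 in non-adipose tumours, a difference of 0.03 (SE 0.11) with overlapping groups. Phlda2, which limits placental growth and was singled out after its values were seen, read 3.18, 3.19 and 3.28 in white adipose tumours against 2.95, 2.72 and 3.19 in non-adipose tumours. Its groups overlapped, the difference was 0.26 (SE 0.12), and the gene was among the dimmest, at percentile 6.10.

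Kcnq1ot1, a paternally expressed noncoding RNA that silences its neighbours in cis, was 1 of 2 members whose groups of arrays did not overlap. It read 5.57, 5.54 and 5.73 in white adipose tumours against 5.46, 5.24 and 5.49 in non-adipose tumours, 1.16-fold higher with a difference of 0.22 (SE 0.095; 95% confidence interval from -0.02 to 0.45). All 3 white adipose arrays were above all 3 non-adipose arrays, but the nearest pair, white adipose replicate 2 and non-adipose replicate 3, was closer together than the SD of either group. The adjusted p in the limma fit was 0.936. The other member was Asb4, a substrate adaptor of a ubiquitin ligase, at 4.54, 4.09 and 4.09 in white adipose tumours against 4.09, 4.07 and 4.01 in non-adipose tumours. Its difference of 0.18 (SE 0.13) became 0.03 without white adipose replicate 1. Groups did not overlap for 7.31% of all genes, or 3.34% higher and 3.97% lower, beside 2 of 31 members higher and 0 lower. Of the genes that Kcnq1ot1 silences in cis, beside Phlda2 and Cdkn1c, the potassium channel gene Kcnq1 differed by 0.10 (SE 0.065) and the transporter gene Slc22a18 by -0.09 (SE 0.14).

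**Figure D2:**
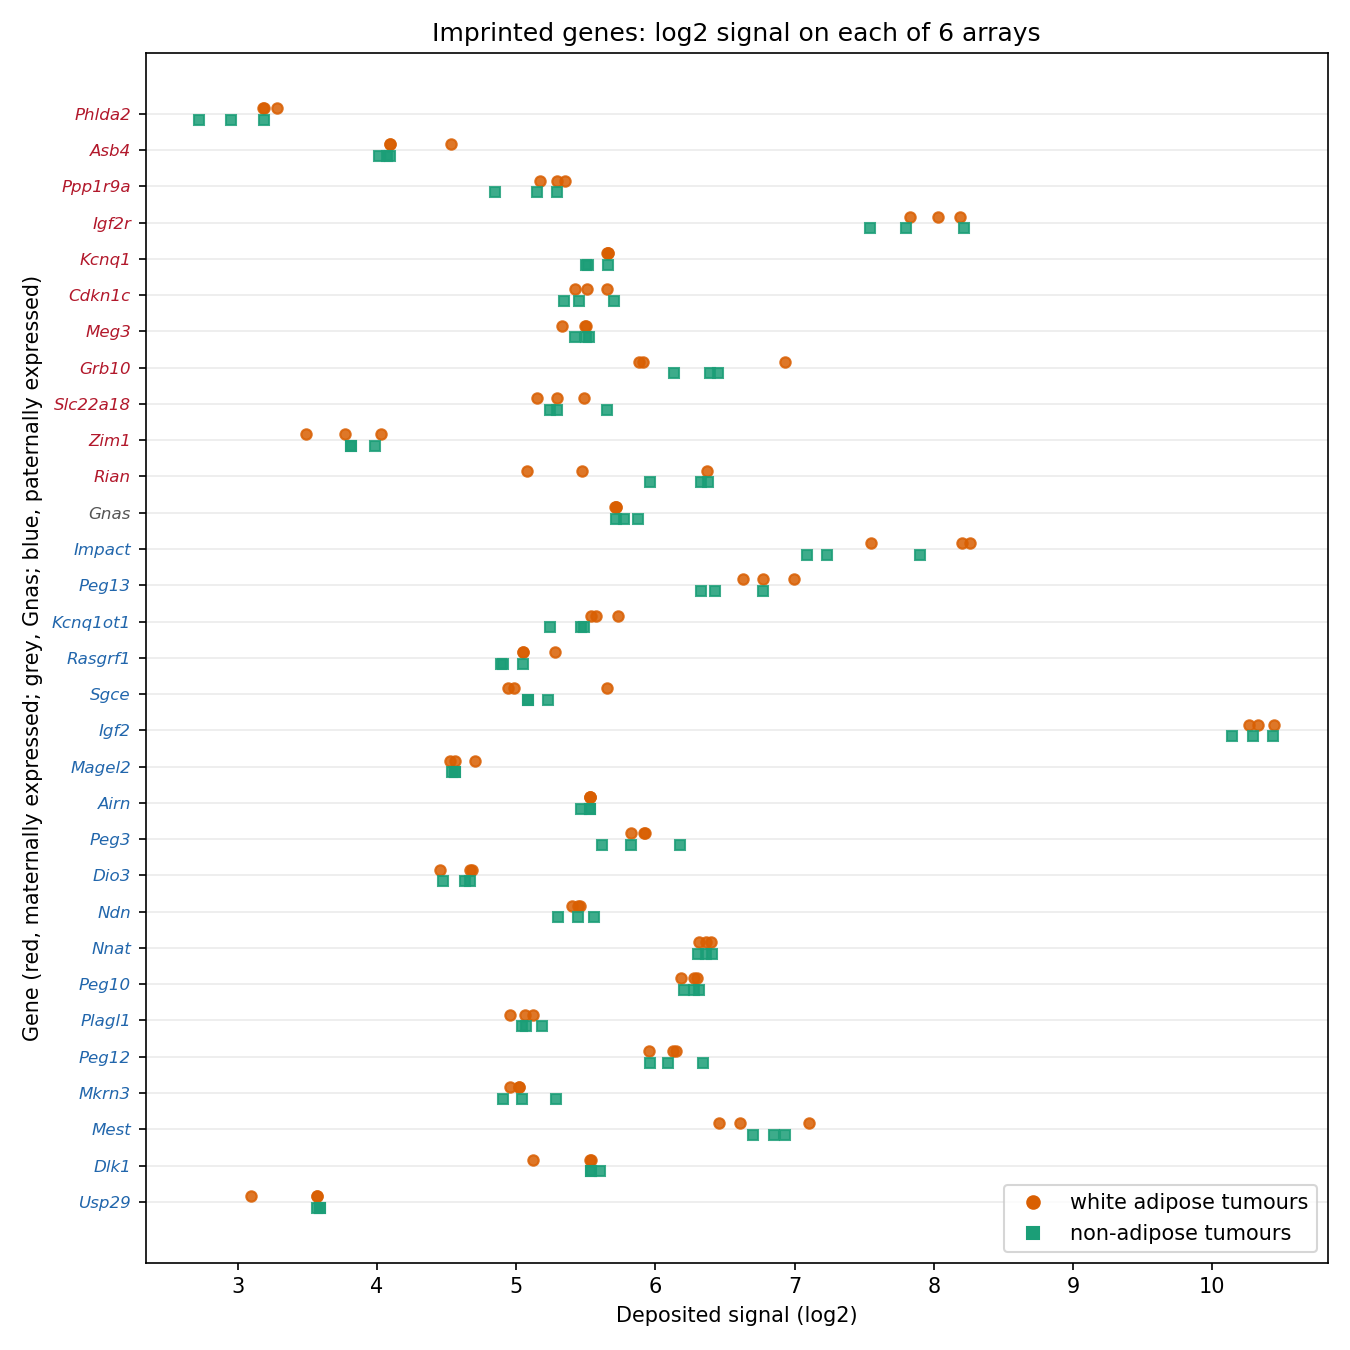
Deposited log2 signal of 31 imprinted genes on each array, with white adipose tumours as circles and non-adipose tumours as squares, 3 each. Igf2 lies near 10.3 on all arrays, and the groups stand apart only for Kcnq1ot1 and, narrowly, Asb4.

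In the Dlk1-Dio3 cluster, Rian, a maternally expressed noncoding RNA that hosts small nucleolar RNAs and microRNAs, had the widest range of any member. It read 6.37, 5.47 and 5.08 in white adipose replicates 1, 2 and 3, against 6.33, 6.38 and 5.96 in non-adipose replicates 1, 2 and 3. White adipose replicates 2 and 3 were below every other array, and replicate 1 was among the non-adipose arrays. The mean was 5.64 ± 0.66 in white adipose and 6.22 ± 0.23 in non-adipose tumours (SD, n = 3 each), a difference of -0.58 (SE 0.33; 95% confidence interval from -1.38 to 0.22), or 1.50 times lower. Without white adipose replicate 1 it was -0.95, and in limma the adjusted p was then 0.517. The part of that array's keratinocyte or other cell type marker signal in the Rian value was not tested.

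The other genes of that cluster were nearly level. Meg3, the long noncoding RNA transcribed upstream of Rian on the maternal copy, read 5.33, 5.50 and 5.49 in white adipose tumours against 5.52, 5.42 and 5.50 in non-adipose tumours, a difference of -0.04 (SE 0.073). It was read here by the 1 probe set annotated to Meg3 alone, while 2 probe sets that share its name with microRNAs were left out. Dlk1, the transmembrane protein also known as preadipocyte factor, which holds back adipocyte differentiation, read 5.12, 5.53 and 5.54 in white adipose tumours against 5.54, 5.54 and 5.60 in non-adipose tumours. White adipose replicate 1 was the single low array, and the difference of -0.17 (SE 0.12) became -0.03 without it. Dio3, which inactivates thyroid hormone, differed by 0.01 (SE 0.093).

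Impact, a paternally expressed gene whose product restrains the stress kinase GCN2, had the largest difference of any member. It read 7.55, 8.26 and 8.20 in white adipose replicates 1, 2 and 3, against 7.09, 7.23 and 7.90 in non-adipose replicates 1, 2 and 3. The groups overlapped, because non-adipose replicate 3 was above white adipose replicate 1. The mean was 8.002 ± 0.40 in white adipose and 7.41 ± 0.43 in non-adipose tumours (SD, n = 3 each), 1.51-fold higher at 0.59 (SE 0.28), with a 95% confidence interval from -0.09 to 1.27. The sign held whichever array was left out, with values from 0.43 to 0.84. Without white adipose replicate 1 and non-adipose replicate 3, the arrays with the most keratinocyte marker signal, it was 1.07, with an adjusted p of 0.255 in limma over all genes. That pair was chosen after the data were seen, and leaving it out also removes the overlapping arrays. The fibroblast markers Pdgfra and Lum ordered the 6 arrays as Impact did, and the others of that list did not. Pdgfra read 10.35, 11.14 and 10.88 in white adipose replicates 1, 2 and 3, against 9.54, 9.96 and 10.83 in non-adipose replicates 1, 2 and 3 (difference 0.68, SE 0.36). Lum, picked after its values were seen, had the same order and differed by 0.99 (SE 0.42). The collagen genes Col1a1, Col1a2 and Col3a1 were instead highest in white adipose replicate 1, where Impact was lowest within its group. Col1a2 read 10.44, 8.21 and 8.39 in white adipose replicates 1, 2 and 3, against 9.68, 9.63 and 9.02 in non-adipose replicates 1, 2 and 3. Of all 8 fibroblast markers, 5 had a higher and 3 a lower mean in the white adipose tumours, and the mean of the list was 9.45 to 9.78 in the white adipose arrays against 9.21 to 9.69 in the non-adipose arrays. Their part in the Impact value was not tested.

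Peg13 and Sgce were singled out after their values were seen. Peg13, a paternally expressed noncoding RNA, followed a like order of arrays, at 6.63, 6.997 and 6.77 in white adipose tumours against 6.33, 6.43 and 6.77 in non-adipose tumours. Its difference was 0.29 (SE 0.15), and non-adipose replicate 3 lay within the white adipose range. Mest, a member of the alpha/beta-hydrolase family whose RNA is abundant in growing fat, read 7.10, 6.61 and 6.46 in white adipose replicates 1, 2 and 3 against 6.70, 6.85 and 6.93 in non-adipose replicates 1, 2 and 3. As with Grb10, white adipose replicate 1 was the highest array and replicates 2 and 3 the lowest, so that -0.11 (SE 0.17) became -0.30 without replicate 1, and 0.0247 without replicate 3. Sgce, the epsilon-sarcoglycan, had the same order within the white adipose tumours, at 5.65, 4.98 and 4.94 against 5.08, 5.23 and 5.08 in the non-adipose tumours, and 0.06 (SE 0.20) became -0.17. For Grb10, Mest and Sgce alike, white adipose replicates 2 and 3 were below every non-adipose array. With Rian they made 4 of 31 members. These 2 arrays were set apart after the values were seen, and smaller groups overlap less often by construction. The share over all genes was not counted. The part of the keratinocyte or other cell type marker signal in the high values of replicate 1 was not tested.

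**Figure D3:**
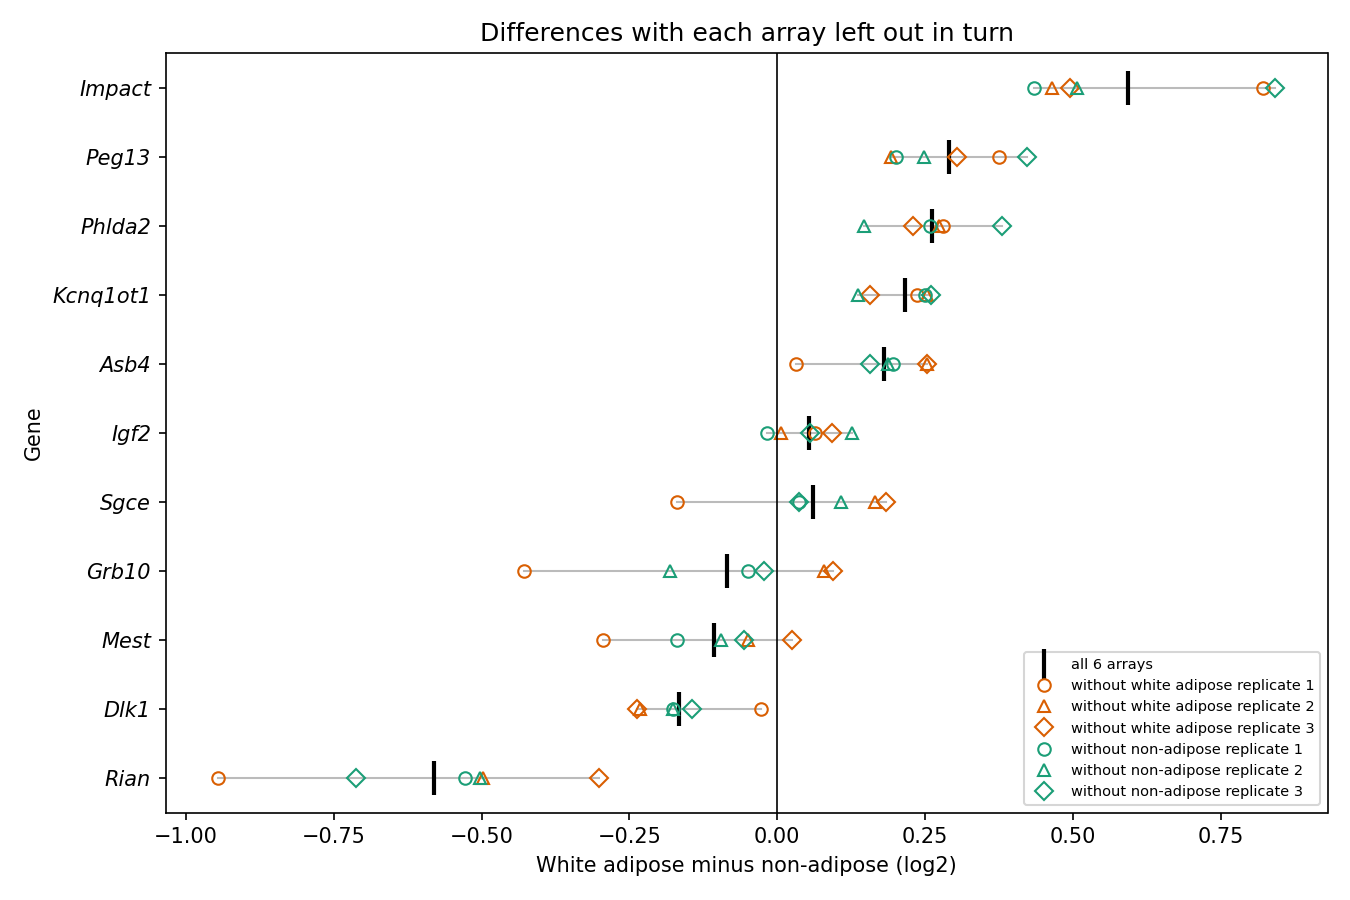
Log2 difference, white adipose minus non-adipose, for 11 imprinted genes with all 6 arrays (black bars) and with each array left out in turn (open symbols, coloured by site and shaped by replicate). Leaving out white adipose replicate 1 moves Rian to -0.95, Grb10 to -0.43 and Mest to -0.30, and Impact stays between 0.43 and 0.84.

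Zinc finger and neural members showed little. Peg3, a zinc finger protein with roles in growth and maternal behaviour, read 5.93, 5.82 and 5.92 in white adipose tumours against 6.17, 5.82 and 5.62 in non-adipose tumours, where its lowest and highest values both lay, and it differed by 0.02 (SE 0.14). Its neighbours were dim, Usp29 (a ubiquitin protease gene) at percentile 8.90 and Zim1 (another zinc finger gene) at percentile 11.61, with differences of -0.17 (SE 0.14) and -0.11 (SE 0.14). The zinc finger factor gene Plagl1 differed by -0.05 (SE 0.074). Of the Snrpn-Ndn cluster, best known from neurons and Prader-Willi syndrome, Ndn differed by 0.0013, Magel2 by 0.04, Peg12 by -0.06 and Mkrn3 by -0.08. The neuronal proteolipid gene Nnat differed by -0.0012 and the retrotransposon-derived Peg10 by -0.01. Ppp1r9a, which encodes the actin-binding protein neurabin, differed by 0.17 (SE 0.13), and the Ras exchange factor gene Rasgrf1 by 0.18 (SE 0.09). Gnas, which encodes the stimulatory G protein alpha subunit, read 5.72, 5.71 and 5.71 in white adipose tumours against 5.71, 5.87 and 5.78 in non-adipose tumours, a difference of -0.07 (SE 0.063). It lay at percentile 46.40, read by the 1 probe set annotated to Gnas alone, and which of its transcripts that probe set reads was not examined. For Gnas, Rian, Peg3 and Usp29 alike, 1 further probe set that also carries other gene names was left out.

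By mean signal, 22 of the 31 members lay below the median of all genes and 6 below the 30th percentile, and the median member was at percentile 41.29. Igf2, Igf2r and Impact were the 3 above the 75th percentile. Over the 6 arrays, 9 of the 31 spanned less than 0.25 on the log2 scale, as did 29.9% of all genes. The sign of the site difference was the same whichever array was left out for 14 members: 6 of the maternally expressed, 7 of the paternally expressed and Gnas. That is 45.2% of members, beside 51.2% of all genes.

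**Figure D4:**
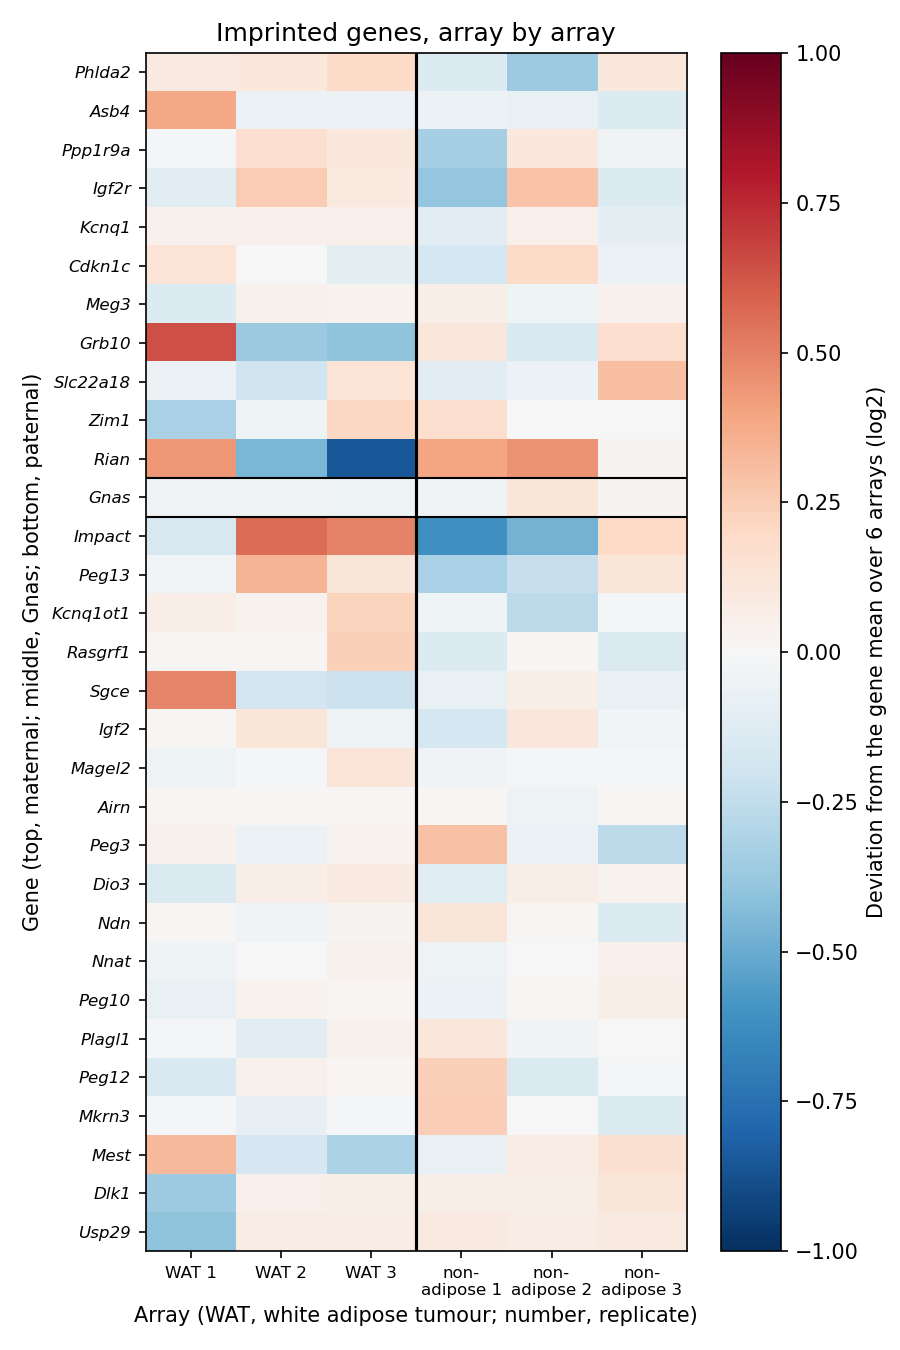
Deviation of each gene from its own mean over 6 arrays (log2; red above, blue below), with white adipose arrays left of the line and non-adipose arrays right of it. Grb10, Sgce, Asb4 and Mest are highest in white adipose replicate 1, Impact and Peg13 are lowest in non-adipose replicate 1, and most other rows are pale.

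Imprinted genes beyond the list were tested as well, and shares of all genes at an unadjusted p under 0.05 are those above, 1.66% higher and 2.13% lower. Of 24 further maternally expressed genes, 1 was lower at an unadjusted p under 0.05 and 0 were higher, with a median difference of -0.01. That gene was the phospholipid transporter Atp10a, at 8.98, 8.93 and 8.99 in white adipose tumours against 9.21, 9.15 and 9.04 in non-adipose tumours (difference -0.17, SE 0.067). Dcn, the matrix proteoglycan decorin, which is imprinted in mouse placenta, differed by 0.13 (SE 0.14) at percentile 99.92. Of 10 further paternally expressed genes, 1 was lower and 0 higher, and the median difference was 0.02. That gene was the phosphatase Inpp5f, at 7.08, 7.05 and 7.02 in white adipose tumours against 7.25, 7.38 and 7.23 in non-adipose tumours (difference -0.24, SE 0.065), with an adjusted p of 0.936 in limma. For these further genes, whether 1 parental copy or both were expressed in these tumours was not measured. Which transcripts their probe sets read was not examined.

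Of 20 genes that set or maintain imprints, the mean in the white adipose tumours was lower for 17 and higher for 3, beside 50.2% of all genes lower, with a median difference of -0.05. At an unadjusted p under 0.05 there were 1 higher and 1 lower, beside 1.66% and 2.13% of all genes. Setdb1, the histone methyltransferase recruited to imprints through TRIM28, read 7.92, 8.01 and 7.96 in white adipose tumours against 8.15, 8.11 and 8.14 in non-adipose tumours, with no overlap (difference -0.17, SE 0.056). Ctcfl, the germline relative of the insulator protein CTCF, read 5.39, 5.19 and 5.31 in white adipose tumours against 5.09, 5.05 and 4.97 in non-adipose tumours (difference 0.26, SE 0.0755), at percentile 33.89 by signal. Ctcf itself differed by -0.04 (SE 0.058), the maintenance methyltransferase Dnmt1 by -0.10 (SE 0.098) and Zfp57 by -0.0012 (SE 0.089). None of the 20 had an adjusted p below 0.936.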

How the data were processed

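Total RNA from 6 tumours was hybridised to 6 arrays as biotin-labelled cDNA, per the labels' protocols. The authors deposited log2 signals for 41345 probe sets, with 0 missing values and array medians of 5.66 to 5.69; the log2 scale was read from the values. Per the submitters' processing notes, the software was Affymetrix Expression Console; how it normalized the arrays is not stated in the labels. A normalization that equalises arrays would remove a change shared by most genes. Scanner files, detection calls and scan dates were not used, so array batches were not tested.

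Probe sets with exactly 1 symbol in the platform annotation (23521; 1814 had several, 16010 none) were kept, 1 per gene by highest mean over 6 arrays. All 31 measured members matched RefSeq (GRCm38.p6) by Entrez identifier. The site difference was tested in limma 3.58.1 under R 4.3.3 (lmFit, eBayes), white adipose minus non-adipose, all 6 arrays, with no block or filter, and Benjamini-Hochberg adjustment over 22180 genes at 0.05. The fit was tested on simulated data. The number of arrays limits precision: the median 95% interval half-width over members was 0.28. The labels call samples biological replicates, and each p sets the site difference against the spread between them, as moderated over all genes by eBayes. An exact permutation test of 3 against 3 arrays cannot go below 0.1 and was not used. Members and lists were chosen with earlier results of these data known. Full values were given for members whose unadjusted p was under 0.05, whose groups did not overlap or whose difference reached 0.5, and in any event for Igf2, Igf2r, Dlk1, Meg3, Rian, Peg3, Cdkn1c, Grb10, Mest and Gnas; the remaining members are accounted for more briefly. Genes of other lists were named at an unadjusted p under 0.05 (up to 4 per list), with Adipoq, Acta1, Epcam, Pdgfra and Dcn in any event; other genes named from those lists were chosen after their values were seen. Alternatives were a replicate block, quantile normalization, median subtraction, leaving out dim genes, trend and robust moderation, array weights, the mean of all probe sets of a gene, and leaving out arrays.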

Additional observations from a re-analysis of the deposited data

How the results depend on the processing

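No gene was called at an adjusted p under 0.05, higher or lower, under any setting run; the smallest adjusted p in limma was 0.936 as reported, and over the alternatives it lay between 0.121 (without white adipose replicate 1 and non-adipose replicate 3, a pair chosen after the data were seen) and 0.994. With that pair left out, members at an unadjusted p under 0.05 numbered 3 higher and 2 lower, beside 1103 higher and 1242 lower of all genes. Non-overlapping members were 5 higher and 5 lower, and groups of 2 arrays overlap less often by construction. Meg3 turned to 0.0255, Cdkn1c to -0.0557 and Peg3 to -0.13. With array weights, members at an unadjusted p under 0.05 were 4 higher and 1 lower, all genes 728 higher and 893 lower, and Cdkn1c turned to -0.0038 and Peg3 to -0.0175. Non-overlapping members were 1 higher and 1 lower after quantile normalization, 1 higher and 2 lower after subtracting array medians, and 1 higher with dim genes left out, where 232 of all genes were higher at an unadjusted p under 0.05.

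Leaving out 1 array at a time gave 0 to 3 members higher and 0 to 3 lower at an unadjusted p under 0.05, the 3 higher without non-adipose replicate 3 and the 3 lower (Rian, Grb10, Mest) without white adipose replicate 1. Non-overlapping members were 2 to 6 higher and 0 to 4 lower, the 6 without non-adipose replicate 2, and the smaller groups overlap less often by construction. All genes at an unadjusted p under 0.05 were 298 to 819 higher and 336 to 981 lower, most without white adipose replicate 1. The median of maternally expressed members ran from -0.0206 to 0.13. The sign was kept in every such fit for 14 of 31 members; among those chosen for full values by the stated rule it was not kept for Meg3 (-0.0712 to 0.0155), Grb10 (-0.43 to 0.0949), Cdkn1c (-0.0506 to 0.13), Igf2 (-0.0181 to 0.13), Peg3 (-0.11 to 0.17) and Mest (-0.30 to 0.0247). The causes were not tested.

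Replicate numbers are shared by the groups, but the labels do not say that equal numbers share an animal or day, so no block was used. Deviations of same-numbered arrays correlated at 0.142, 0.064 and 0.0641, and those of differently numbered arrays at -0.1815 to 0.0864. White adipose replicates 1 and 3 correlated best with the same number, and replicate 2 with non-adipose replicate 3. These values do not settle whether the numbers mark pairs. With the replicate block, 2 members (Impact and Kcnq1ot1) were higher at an unadjusted p under 0.05 and 0 lower, with a smallest adjusted p of 0.885. All genes at an unadjusted p under 0.05 then numbered 504 higher and 577 lower, against 368 and 473 without the block.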

Other observations

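Of the 31 members, 20 had the same deposited value, to every decimal given, on at least 2 of the 6 arrays, as did 35.3% of all genes. Airn stood at 5.53 on 5 of 6 arrays. Over all genes the share was 44.8% in the dimmest quartile by mean signal and 19.9% in the brightest quartile.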
